A study of Mus musculus with 2 samples.

Results

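The miR-30 family was measured at 6 miRNA genes, Mir30a, Mir30b, Mir30c-1, Mir30c-2, Mir30d and Mir30e, which lie as 3 pairs on mouse chromosomes 1, 15 and 4. They were found by gene identifier through the GENCODE mouse annotation, and all 6 had a row among the 1973 miRNA genes counted. Small RNA was sequenced from embryonic midbrain of the mouse strain B6NCrl at 14.5 days, with fragments under 30 nt as the stated size range. The series holds 1 group with 2 biological replicates and no treatment, genotype or second tissue, so that no contrast between conditions exists. Each library is described as the midbrain of a single pup, collected on a different day, while the sex label speaks of pooled males and females and both libraries carry the same donor identifier. If the libraries are not separate animals, the SDs below measure technical spread only.

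A miRNA gene is transcribed into a long primary RNA, from which a hairpin is cut and trimmed to a short duplex. The strand loaded into an Argonaute protein, usually of the 5p or the 3p arm, recognises target mRNAs mainly through its seed, bases 2 to 8. The miR-30 family is defined by the seed of its 5p arms, and miR-30a-5p has been studied as a repressor of the neurotrophin BDNF in the cortex. Mir384, on the X chromosome, gives a 5p arm with that seed, which has been studied in synaptic plasticity of the hippocampus.

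The mature sequences are shown because they decide both the family's targets and which reads can be assigned to a locus. RefSeq sequences (GRCm38.p6) matched 4 of the 6 genes, Mir30a, Mir30c-1, Mir30c-2 and Mir30e; Mir30b and Mir30d were not matched. Each is written 5′ to 3′ with the seed in capitals. The 5p arms of the 4 matched genes and of Mir384 share the seed GUAAACA, and no other gene of that table has a mature sequence with it:
miR-30e-5p: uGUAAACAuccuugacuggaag
miR-30a-5p: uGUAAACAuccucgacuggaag
miR-30c-5p: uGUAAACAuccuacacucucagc
miR-384-5p: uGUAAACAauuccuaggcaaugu
The 3p arms fell into other seed groups. Mir30a and Mir30e share a 3p seed with no other gene of the table, and Mir30c-1 and Mir30c-2 share theirs with miR-6958-5p of Mir6958, which had 53 and 27 reads:
miR-30e-3p: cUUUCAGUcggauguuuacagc
miR-30a-3p: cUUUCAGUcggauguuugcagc
miR-30c-1-3p: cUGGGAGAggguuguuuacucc
miR-30c-2-3p: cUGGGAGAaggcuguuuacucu
Positions were counted from 1 at the 5′ end of each mature sequence. From miR-30a-5p to miR-30e-5p there was 1 difference, C13U, and from miR-30a-3p to miR-30e-3p there was 1, G18A. From miR-30c-1-3p to miR-30c-2-3p there were 3, G9A, U12C and C22U. The 5p arm of Mir30c-1 and of Mir30c-2 is the same sequence.

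The miR-30c hairpins are shown whole, with the longest stretch they share in capitals:
Mir30c-1: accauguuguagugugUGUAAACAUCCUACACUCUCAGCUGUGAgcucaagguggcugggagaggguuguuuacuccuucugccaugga
Mir30c-2: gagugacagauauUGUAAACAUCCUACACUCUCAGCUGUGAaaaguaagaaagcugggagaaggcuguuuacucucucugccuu
The shared stretch is 28 nt long and covers the whole of miR-30c-5p. The longest stretch shared by the hairpins of Mir30a and Mir30e was 18 nt, and by either of them and a miR-30c hairpin 12 nt.

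The sense reads of all miRNA genes, those on the annotated strand, numbered 7302633 in replicate 1 and 3966727 in replicate 2. Levels are given as CPM, counts scaled by those totals, where a single read was worth 0.137 and 0.252 CPM. A count of 0 allows a level of up to 0.411 CPM in the first library and 0.756 CPM in the other, the worth of 3 reads. All intervals and limits describe counting error alone, because PCR can copy 1 molecule into several reads. The counts are per hairpin and do not tell the 5p from the 3p arm. The brain list of the markers (among them Mir137, Mir149 and Mir128-1) had 8 of 10 loci detected, meaning at least 10 reads in each library. Its summed level was 36068 CPM in replicate 1, against 41083 CPM in replicate 2. The list was uneven, with Mir149 at 17015 and 18011 CPM and Mir137 at 11495 and 13936 CPM. Mir9-3 had 514 and 558 CPM, Mir124a-1 7.53 and 5.80 CPM and Mir124a-2 11.1 and 11.6 CPM, and Mir9-2 and Mir124a-3 were not detected. Mir9 and Mir124a are each annotated as several loci, and reads mapping to several places were listed apart from the genes. Their counts may therefore leave out reads, how many was not tested, and low counts here do not show low levels. The summed levels of the vessel wall list (Mir126a, Mir143 and Mir145a) were 32566 and 21781 CPM. Those of the red cell list (Mir451a, Mir144 and Mir486) were 486 and 153 CPM, and those of the myeloid list (Mir223 and Mir155) 315 and 113 CPM, with 3 of 3 and 2 of 2 loci detected. Among 4 muscle loci, 1 was detected, Mir206, and Mir133a-1 and Mir133a-2 had no read. Mir133a is likewise annotated as several loci, so reads that map to both would be left out, and the lack of reads does not show absence.

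The 6 miR-30 loci together took 5.11% of the sense reads in replicate 1, against 4.77% in replicate 2, a mean of 4.94% ± 0.235 (SD, n = 2). The 95% Clopper-Pearson intervals were 5.09 to 5.12 for replicate 1 and 4.75 to 4.80 for replicate 2. All 6 were detected, but nearly all of the reads assigned to them came from Mir30e, Mir30a and Mir30d. These 3 loci, 1 from each pair, held 99.4% of the miR-30 reads in replicate 1 and 99.3% in replicate 2. Mir30b, Mir30c-1 and Mir30c-2 together held 0.598% (exact Clopper-Pearson 95% interval 0.573 to 0.623) and 0.675% (0.638 to 0.713). These shares, and the places and order below, hold for reads assigned to a single locus. Reads of miR-30c-5p, which match both miR-30c hairpins, may be missing from them, so the part of miR-30c in the family is not known.

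Mir30e (ENSMUSG00000065409.1) lies at chr4:120772606-120772697 on the minus strand of mm10, in an intron of Nfyc, which encodes a subunit of the CCAAT-binding factor NF-Y. It had 227890 reads in replicate 1 and 114128 in replicate 2, or 31207 and 28771 CPM. With a mean of 29989 ± 1722 CPM (SD, n = 2) it was the highest member in both libraries and took place 7 among all miRNA genes. It alone held 60.7% ± 0.599 of the miR-30 reads. The annotation places Mir30f on the plus strand over the same bases, and neither library had a read on that strand at Mir30e.

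Mir30c-1 (ENSMUSG00000065490.1) also lies in an intron of Nfyc, at chr4:120769534-120769622 on the minus strand, 2983 nt from Mir30e. It had 584 and 344 reads, or 80.0 and 86.7 CPM, a mean of 83.3 ± 4.77 CPM (SD, n = 2). Its level in both libraries was thus far below that of Mir30e, with no overlap. The ratio of Mir30e to Mir30c-1 was 390.2 in replicate 1 (exact 95% interval from the counts 359.8 to 424) and 332 in replicate 2 (298 to 369.9). On the log2(CPM + 1) scale the difference was 8.47 ± 0.16 (SD, n = 2).

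Mir30a (ENSMUSG00000065405.2) lies at chr1:23272269-23272339 on the plus strand, outside any other gene of the annotation. It had 88312 and 43479 reads, or 12093 and 10961 CPM, a mean of 11527 ± 801 CPM (SD, n = 2), in place 19. Its share of the miR-30 reads was 23.3% ± 0.511. Mir30c-2 (ENSMUSG00000065567.1) lies 19361 nt away at chr1:23291701-23291784 on the plus strand, within an exon of the long noncoding RNA gene Gm27028. It was the lowest member in both libraries, with 334 and 198 reads, or 45.7 and 49.9 CPM, a mean of 47.8 ± 2.95 CPM (SD, n = 2). The ratio of Mir30a to Mir30c-2 was 264 in replicate 1 (exact 95% interval 237 to 295) and 219.6 in replicate 2 (191 to 254), and the log2(CPM + 1) difference was 7.88 ± 0.19 (SD, n = 2).

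Mir30d (ENSMUSG00000065437.1) lies at chr15:68341208-68341289 on the minus strand and overlaps exons of the noncoding gene models Gm20732 and Gm37296. It had 54514 and 30514 reads, or 7465 and 7692 CPM, a mean of 7579 ± 161 CPM (SD, n = 2), in place 26. It held 15.4% ± 1.06 of the miR-30 reads. Mir30b (ENSMUSG00000065476.2), 3697 nt from it at chr15:68337415-68337510 on the minus strand, overlaps an exon of the noncoding gene model Gm26621. It had 1311 and 736 reads, or 179.5 and 186 CPM, a mean of 183 ± 4.26 CPM (SD, n = 2). The ratio of Mir30d to Mir30b was 41.6 in replicate 1 (exact 95% interval 39.4 to 44.0) and 41.5 in replicate 2 (38.5 to 44.7). The log2(CPM + 1) difference of 5.37 ± 0.0028 (SD, n = 2) was the smallest of the 3 pairs and the most alike in the libraries.

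**Figure D1:**
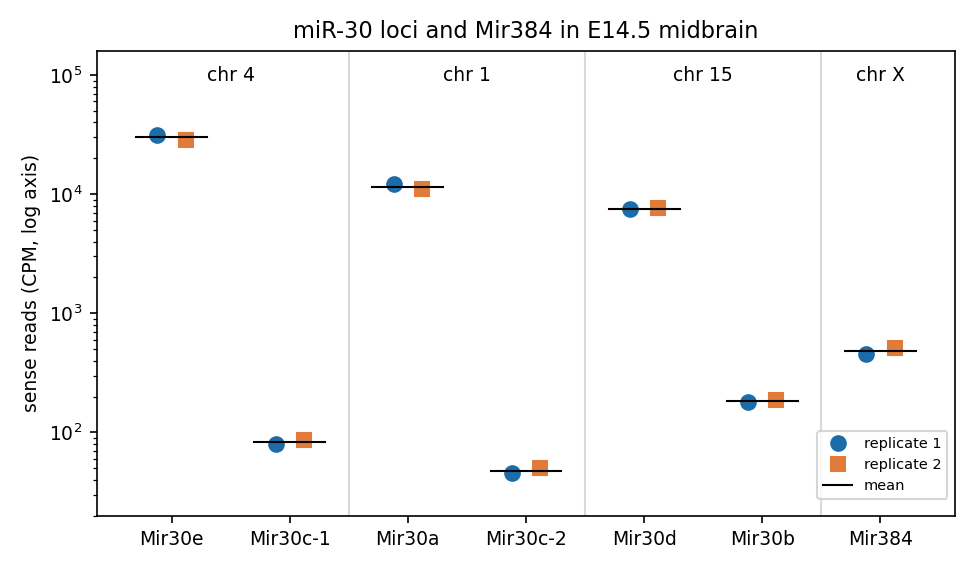
Level of each miR-30 locus and of Mir384 in CPM on a log axis, grouped by chromosome, with replicate 1 as circles, replicate 2 as squares and the mean as a line. Mir30e, Mir30a and Mir30d lie at 7465 CPM or more in both libraries, and Mir30b, Mir30c-1 and Mir30c-2 at 186 CPM or less.

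The order of the 6 levels was the same in both libraries, from Mir30e over Mir30a, Mir30d, Mir30b and Mir30c-1 to Mir30c-2. No neighbours in this order overlapped, and each step was larger than the SD of either member. The smallest step was from Mir30a to Mir30d, with ratios of 1.62 in replicate 1 and 1.42 in replicate 2. Mir30e exceeded Mir30a 2.58-fold and 2.62-fold, Mir30b exceeded Mir30c-1 2.24-fold and 2.14-fold, and Mir30c-1 exceeded Mir30c-2 1.75-fold and 1.74-fold. With 2 libraries no exact permutation test of these differences can come under the threshold of 0.05, and none was run. The pairs as units held 60.9% ± 0.582 of the miR-30 reads for Mir30e and Mir30c-1, 23.4% ± 0.501 for Mir30a and Mir30c-2, and 15.7% ± 1.08 for Mir30d and Mir30b.

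Mir384 (ENSMUSG00000065499.1, chrX:105344282-105344369, minus strand), which shares the seed but not the rest of the sequence, had 3311 and 2039 reads, or 453 and 514 CPM. Its mean of 484 ± 42.9 CPM (SD, n = 2) lay between those of Mir30d and Mir30b. By assigned reads it outranked the low members of all 3 pairs and took place 129, against places 185, 219 and 251 for Mir30b, Mir30c-1 and Mir30c-2.

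The differences within the chromosome 4 and chromosome 1 pairs lay near the upper end of those between neighbouring miRNA genes, and that of the chromosome 15 pair above the middle. Detected loci that followed each other on the same strand with at most 20000 nt between them formed 114 pairs, the 3 miR-30 pairs among them. Their median log2(CPM + 1) difference was 2.53, and 22 pairs differed by less than 2-fold. Only 6 of the 114 pairs differed by at least as much as Mir30e and Mir30c-1, 10 by at least as much as Mir30a and Mir30c-2, and 28 by at least as much as Mir30d and Mir30b, each count including the named pair itself. Pairs of 1 cluster share loci and are not independent, so these counts are a description.

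**Figure D2:**
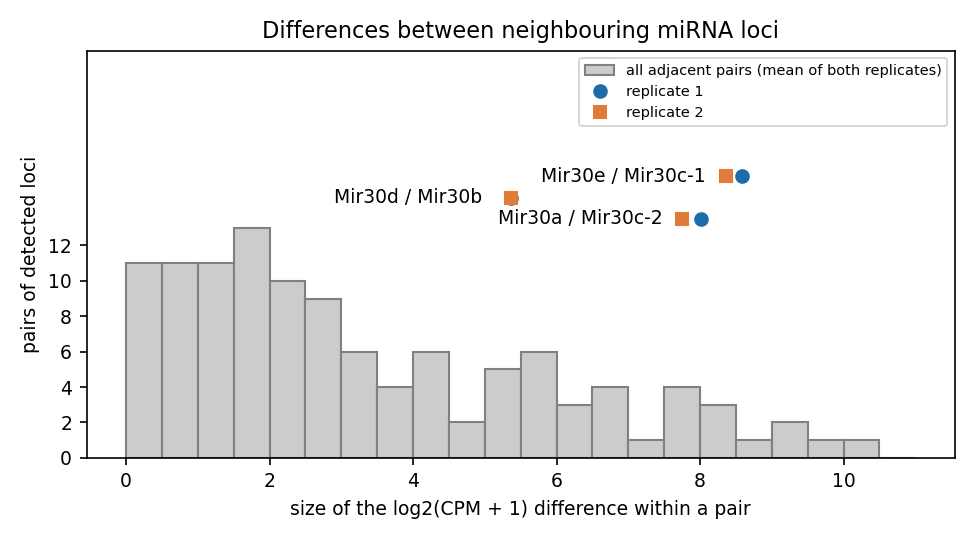
Size of the difference in log2(CPM + 1) between neighbouring detected miRNA loci, with the 114 pairs as a histogram and the 3 miR-30 pairs as points for replicate 1 (circles) and replicate 2 (squares). The height of the points carries no value; Mir30e/Mir30c-1 and Mir30a/Mir30c-2 lie at the upper end, near 8.47 and 7.88, and Mir30d/Mir30b at 5.37.

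The sequences set a limit to the comparison within the chromosome 4 and chromosome 1 pairs. They also limit the family shares, the places and order of the members, and the comparison with Mir384. Reads mapping to several places, 36.2% of all reads in replicate 1 and 36.9% in replicate 2, were listed apart from the genes. A read with the sequence of miR-30c-5p has an exact match in both miR-30c hairpins. Of the 20 nt windows inside that arm, 0 of 4 were found in a single hairpin among the 1005 of the RefSeq table, for Mir30c-1 and for Mir30c-2 alike. Over the whole hairpin 87.1% of 70 windows of Mir30c-1 and 86.2% of 65 windows of Mir30c-2 were found once, the 3p arm included, where 3 of 3 windows were. In the hairpins of Mir30a and Mir30e all 52 and all 73 windows were found once. The counts of Mir30c-1 and Mir30c-2 may therefore leave out reads of their shared 5p arm, and how many was not tested, because the table does not give the arm. Copies outside the hairpins of the RefSeq table were not searched.

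**Figure D3:**
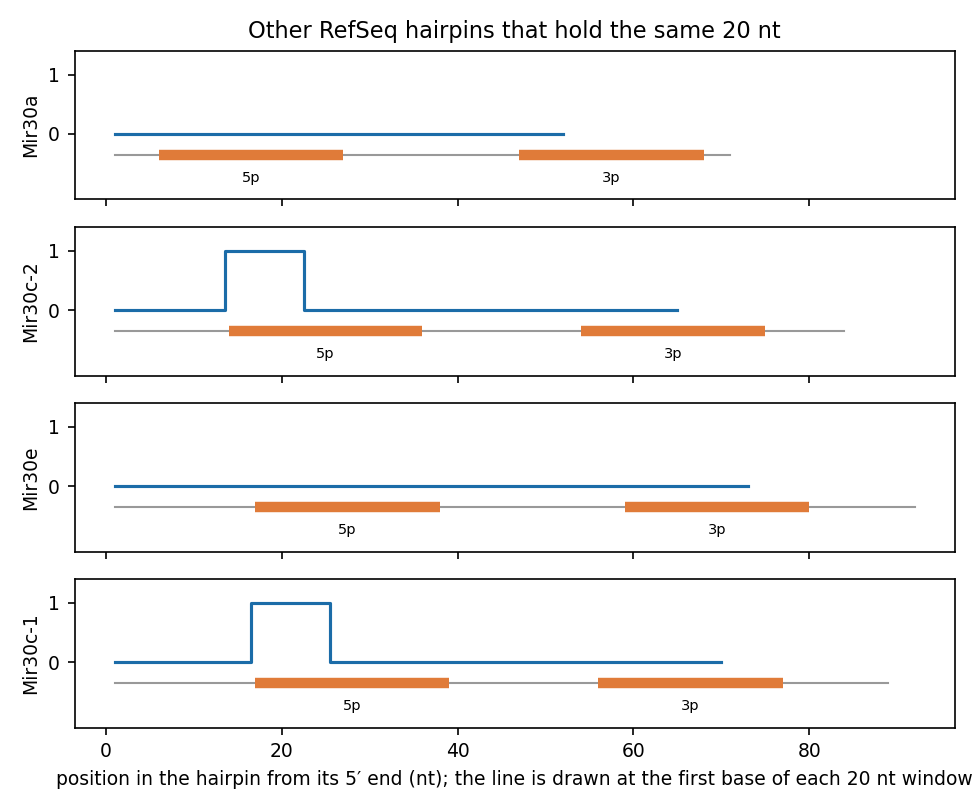
Number of other RefSeq hairpins that hold the same 20 nt, by the first base of each window, along the hairpins of Mir30a, Mir30c-2, Mir30e and Mir30c-1, with the mature arms as bars. The line is at 0 throughout Mir30a and Mir30e and rises to 1 over the 5p arm of Mir30c-1 and Mir30c-2.

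The levels of loci with and without a shared mature sequence were also compared in other families. The miR-26, miR-29, miR-103 (with Mir107) and miR-181 families, 16 loci in all, also have some mature sequences that come from several loci and others that come from 1. In miR-30 and in each of the 4 other families, every locus that shares a mature sequence had a lower mean than every locus that shares none. The lowest locus without sharing exceeded the highest locus with sharing 138-fold in miR-30 (Mir30a over Mir30c-1), 426-fold in miR-26, 69.6-fold in miR-29, 37.9-fold in miR-103 and 1.70-fold in miR-181. Mir26b, in 1 copy, stood at 14076 ± 515 CPM against 33.1 ± 1.84 CPM for Mir26a-2 and 9.38 ± 2.22 CPM for Mir26a-1 (SD, n = 2). Mir107 stood at 2757 ± 305 CPM, against 72.8 ± 10.2 CPM for Mir103-2. In the miR-181 family, by contrast, Mir181a-1 reached 6180 ± 129.6 CPM although miR-181a-5p also comes from Mir181a-2, and Mir181d without a shared sequence had 10479 ± 757 CPM. Mir30b and Mir30d, whose sequences were not matched, were not part of these counts, and the families were chosen with earlier results known. Mir384, which has the miR-30 seed and shares no mature sequence, was not counted in the miR-30 family either. Mir30b, at 183 CPM, and Mir384, at 484 CPM, lay closer to Mir30c-1, at 83.3 CPM, than Mir30a did, while Mir30d stood at 7579 CPM. The 138-fold gap therefore holds for the matched members only. Among all 13 seed groups of the RefSeq table with detected loci of both kinds, the 5 above included, the loci that share the mature sequence all lay below the others in 9 groups and overlapped with them in 4. The median of the sharing loci was the lower in 12 of the 13. In the overlapping groups, Mir16-1, which shares miR-16-5p with Mir16-2, had 2692 ± 475 CPM against 1714 ± 94.4 CPM for Mir15b, and Mir92-1, which shares miR-92a-3p with Mir92-2, had 1504 ± 113 CPM against 679.8 ± 125 CPM for Mir25 (SD, n = 2). Mir16-1 and Mir92-1 thus shared a mature sequence without lying below Mir15b and Mir25. Their counts do not tell the shared arm from the other arm, so the part of the shared arm in them was not tested. Some loci enter more than 1 group, sharing was judged within the table only, and no test was made. In the Mirlet7 group the overlap rested on Mirlet7a-1, at 259 CPM, counted there as sharing none. Mirlet7a-2, detected at 192 CPM, was not part of that group, so sharing between these loci was not judged.

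**Figure D4:**
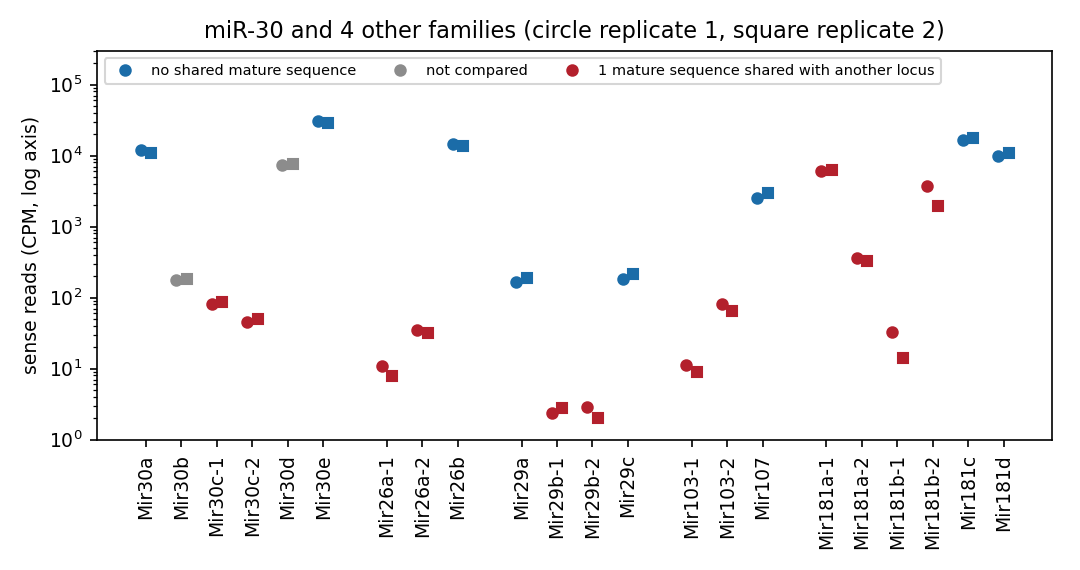
Level in CPM on a log axis of the miR-30 loci and of 16 loci of 4 other families, with replicate 1 as circles and replicate 2 as squares. Loci that share a mature sequence with another locus (red) lie below the loci of their family that share none (blue); Mir30b and Mir30d (grey) were not compared.

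The libraries gave closely similar levels at all 6 loci. The coefficient of variation over the libraries ranged from 2.12% at Mir30d to 6.95% at Mir30a. After TMM scaling, which aligns the bulk of the loci, the median size of the log2 ratio of replicate 2 to replicate 1 was 0.050 over the 6 loci and 0.23 over all 397 detected loci. Mir30a and Mir30e were near the middle of all loci, of which 48.1% and 55.7% had a ratio larger in size. For the other members that share was 88.4% to 95.0%. An exact binomial test per locus, adjusted by Benjamini-Hochberg over the 397 loci, called 3 of the 6 miR-30 loci at an adjusted p under 0.05, against a background of 53.9% of all loci. This test weighs a difference against counting error alone, and it is one between libraries of the same condition.

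All 3 called loci were the abundant ones, and the differences were small. Mir30a had a log2 ratio of -0.24 (exact 95% counting interval -0.25 to -0.22) and Mir30e of -0.21 (-0.22 to -0.20), so that both were called lower in replicate 2, a call made at 30.0% of all loci. Mir30d had a log2 ratio of -0.05 (exact binomial test, adjusted p = 1.55e-06), which turned to 0.04 with plain library totals in place of TMM. Mir30b, Mir30c-1 and Mir30c-2 had log2 ratios of -0.05, 0.02 and 0.03, with adjusted p of 0.598, 0.897 and 0.882 in the exact binomial test. Their intervals were -0.18 to 0.08, -0.17 to 0.22 and -0.23 to 0.29. None reached down to the ratio of Mir30a, and only that of Mir30c-2 held a ratio of the same size, with the opposite sign. The interval of Mir30c-2 did hold the ratio of Mir30e. Mir30b and Mir30d had nearly the same ratio, and only Mir30d, with far more reads, was called. With edgeR's exactTest and a biological coefficient of variation of 0.1, 0 of the 6 loci passed and 0 had an unadjusted p under 0.05, with 6.55% of all loci called. The vessel wall, red cell and myeloid lists were also lower in replicate 2 in summed CPM, and their part in the ratios of Mir30a and Mir30e was not tested.

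**Figure D5:**
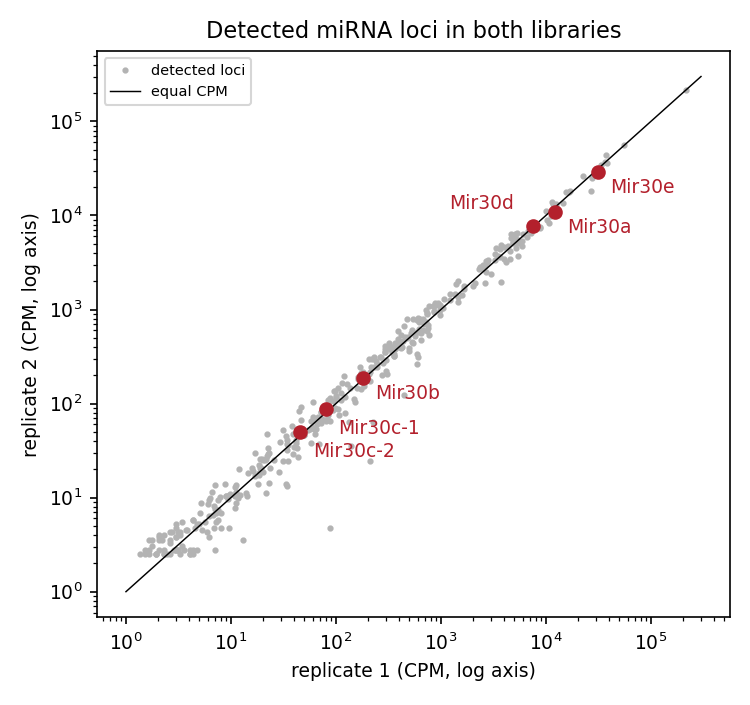
CPM in replicate 1 against replicate 2 on log axes for the 397 detected loci (grey), with the 6 miR-30 loci in red and a line of equal CPM. All 6 lie next to the line, in the upper part for Mir30e, Mir30a and Mir30d and in the middle for the others.

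The loci nearest to each member in mean CPM came from other families. Mir30e stood between Mirlet7i (0.19 higher on the log2(CPM + 1) scale) and Mir17 (-0.04), Mir30a between Mir106b (0.11) and Mir20a (-0.12), and Mir30d between Mir342 (0.09) and Mir130b (-0.15). Mir17, Mir106b and Mir20a come from the miR-17-92 cluster, which is known for promoting growth, or from its copies on other chromosomes. Mir30b stood between Mir500 and Mir29a, within 0.04 on that scale on either side. The neighbours of Mir30c-1 and Mir30c-2 were Mir483 and Mir3059, and Mir212 and Mir199b. Mir199b was close to Mir30c-2 in the mean only, with 88.7 CPM in replicate 1 and 4.79 CPM in replicate 2. Likeness was judged on the mean of 2 libraries of 1 tissue and says nothing about a shared pattern across tissues.

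The hairpins of the 4 matched genes also differed in shape. Their length ran from 71 nt at Mir30a to 92 nt at Mir30e, and their GC content from 42.9% at Mir30c-2 to 52.1% at Mir30a. The folding energy computed by RNAfold was lowest at Mir30e, -51.8 kcal/mol, followed by -37.2 at Mir30a, -34.3 at Mir30c-1 and -29.4 at Mir30c-2. Mir384 folded least stably, at -25.9 kcal/mol, although its mean CPM was above those of Mir30c-1 and Mir30c-2. The share of paired bases was highest at Mir30a, 81.7%, against 73.9% at Mir30e, and so did not follow the order of the levels. The folding energy ran in the order of the levels over the 4 matched genes, but not over the 5 hairpins with Mir384. These hairpins are of unequal length, and the counts of Mir30c-1 and Mir30c-2 may leave out reads. A link between folding and level was not tested.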

How the data were processed

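Raw counts per miRNA gene were deposited by the authors for each library, for both strands together, the annotated strand and the opposite strand. Per the labels and the text deposited with each library they refer to assembly mm10 and annotation M4 (aligner and counting tool: not given in the sources used here). Reads outside genes were left out of totals and tests. CPM used the sense total, log2 values CPM + 1. Symbols and positions came from GENCODE M21, and sequences from RefSeq.

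Replicate 1 had 7302633 and replicate 2 had 3966727 sense reads. Means and SDs are over both. Loci with at least 10 reads in each library were compared between libraries by an exact binomial test with TMM totals (edgeR 4.0.16, R 4.3.3). The method was tried on simulated counts that held counting error alone, so the simulation does not show how it behaves with spread beyond that. glmQLFTest needs a second group. Alternatives used DESeq2 1.42.0, plain totals, other minimums, both strands, edgeR's exactTest and a pseudocount of 0.1 CPM. Windows of 20 nt were searched on both strands, and folding used RNAfold 2.7.2. The named loci were the members, loci with their seed, the neighbours in level and the 4 comparison families. Mir16-1, Mir15b, Mir92-1, Mir25, Mirlet7a-1, Mirlet7a-2 and Mir6958 were chosen after their values were seen. Members and lists were chosen with earlier results of these data known.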

Additional observations from a re-analysis of the deposited data

How the results depend on the processing

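The share of sense reads taken by miR-30 loci, 4.94%, was 6.29% when the most abundant locus was left out of the total and 2.03% of all reads listed, both by construction. It ranged from 4.77% to 5.11% when either library was left out. The log2 difference of Mir30d and Mir30b was 5.37 with a pseudocount of 0.1 CPM as well, a shift beyond its very small SD. Leaving out either library gave 5.37 for that pair, 7.75 to 8.02 for Mir30a and Mir30c-2, and 8.36 to 8.59 for Mir30e and Mir30c-1. With edgeR's exactTest, which allows for spread beyond counting error, the count of miR-30 loci called between the libraries fell from 3 to 0. That of all loci fell from 214 to 26 with a fixed biological coefficient of variation of 0.1, and to 5 with the dispersion estimated from both libraries. That estimate takes the differences under test as spread, so few calls were to be had by construction, and it is no separate check. With plain totals the log2 ratio of replicate 2 to replicate 1 turned from -0.047 to 0.048 at Mir30b and from -0.052 to 0.043 at Mir30d; that scaling moved the median of all detected loci to 0.09. Of 81 values recomputed, 66 kept their direction and call or moved by less than the replicate spread or interval, the windows of 16 and 24 nt included. No paired analysis was possible because the series has 1 group. The count of calls could not be recomputed without a library, since it compares the libraries. Depth limits the low loci most, as the counting intervals of Mir30c-1 and Mir30c-2 show.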
